A study of Mus musculus with 24 samples.

Results

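The elements described here are the mouse endogenous retroviruses of the ERVK family that remain when the intracisternal A-particles (IAP), the MMERVK and RLTR10 elements and the ETn/MusD elements are set aside. They were taken by name from the repeat rows of the RNA count table, as all rows whose family is exactly ERVK and whose name does not start with IAP, MMERVK, RLTR10, ETnERV, MMETn or RLTRETN. This gave 231 of the 276 ERVK rows, among 1445 repeat rows in all. Of the 231, 27 name an internal region (19 ending in -int and 8 ERVB names with -I), and 204 name a long terminal repeat (LTR). By the letters and number that open each name they fall into 60 name series, such as RLTR9, RLTR44, RMER16 or ERVB4.

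A complete ERVK provirus carries an internal region with retroviral genes, such as gag, pro and pol, between a pair of LTRs, and the LTRs hold its promoter. Recombination between both LTRs removes the internal region and leaves a solo LTR, so that LTR names cover many copies that cannot make a full retroviral RNA. In mouse cells these elements are packed with trimethylated H3K9, set mainly by SETDB1 (Eset1) after TRIM28 and KRAB zinc finger proteins have bound, while SUV39H1 and SUV39H2 are best known from pericentromeric heterochromatin, and G9a (Ehmt2) and GLP (Ehmt1) set mono- and dimethylation. When this methylation is lost, the elements may be derepressed, meaning that their RNA rises above the level in unmutated cells.

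RNA was sequenced from 24 libraries of mouse embryonic fibroblasts, 3 in each of 8 conditions, in which genes of the H3K9 methyltransferases were mutated step by step. WT was a fibroblast line with conditional Eset1 alleles whose titles mark it as a control, and E1 was the same line after 4-hydroxytamoxifen (4-OHT) had deleted Eset1. E2 was a clone of this line with Eset2 (Setdb2) mutated, also titled as a control, and E1E2 was that clone after 4-OHT. E1 S1S2 had Suv39h1 and Suv39h2 mutated beside the deleted Eset1, and 6KO1 was the line of this first series in which all 6 enzymes had been hit. In the second series E1E2 G9Gl had lost G9a and Glp beside Eset1 and Eset2, and 6KO2 had lost Suv39h1 and Suv39h2 in addition. The titles mark these 4 lines as treated with 4-OHT too, so that in every comparison against WT except that of E2 a treated condition is set against an untreated one, and the drug and the genotype cannot be told apart. All 8 conditions therefore share the conditional Eset1 background, each mutated line was 1 clone, and clone and genotype cannot be told apart. The 3 libraries of a condition are labelled as independent samples, and p-values measure the spread between these libraries.

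The libraries held between 24736829 and 37419071 counts, of which 19541909 to 31489070 fell on genes. Every level below is a normalized count, scaled by the counts on genes and not by element length, so levels are compared between conditions and not between elements. Setdb1 RNA was 1478 to 1612 in WT, 994 to 1092 in E1 and 657 to 679 in E1E2 G9Gl, but 1018 to 1398 in E2 against 1187 to 1267 in E1E2, so that it did not separate the last pair. Suv39h1 RNA was 2736 to 2849 in WT, 1254 to 1282 in E1 S1S2 and 1569.6 to 1608 in 6KO2, while Suv39h2 RNA in the libraries labelled E1 S1S2, at 1549 to 1850.4, was above the 929 to 1095 of WT. Counts over a whole gene do not show a small guide-made mutation. WT replicate 2 stood apart, with 0.2082% of its counts on these elements against 0.312% and 0.3049% in the other WT libraries, and calls that rest on it are given without it as well. The 10 fibroblast markers were abundant in every library, with summed levels of 172260 to 215885 in WT and 96945 to 108774 in 6KO1. In E1E2 G9Gl their sum was 224413 to 242144, above every WT library. Markers of other cell types moved with genotype: the summed level of 7 trophoblast markers was 120 to 157 in WT, 966 to 1051 in 6KO1 and 1413 to 1490 in E1E2 G9Gl, that of 6 macrophage markers 157 to 172 in WT and 587 to 644 in 6KO1, that of 4 epithelial markers 30.9 to 50.2 in WT and 421 to 446 in 6KO1, and that of 4 endothelial markers 11.9 to 14.9 in WT and 121 to 140 in 6KO1. Cdx2, Elf5, Tfap2c, Adgre1, Csf1r and Cdh1 stayed under 10 in every library, and the part of other cell types in the results below was not tested.

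Summed over all names, the LTR elements were already transcribed in WT and rose modestly, while the internal regions rose more. The summed normalized count of the 204 LTR names was 75197, 52012 and 72656 in the WT libraries, 66622 ± 12716 (SD, n = 3) on average. It was 1.16 times that mean in E1, 1.23 times in E1 S1S2, 1.19 times in E2 and 1.21 times in E1E2, and the libraries of these conditions lay between 70031 and 86477, so that those of E1 overlapped the WT range. In 6KO1 the sum was 1.90 times the WT mean, in E1E2 G9Gl 2.28 times and in 6KO2 1.48 times, and every library of these 3 conditions was above every WT library. The 27 internal names summed to 16715, 14503 and 16367 in WT, a mean of 15862 ± 1189 (SD, n = 3). They reached 1.51 times that mean in E1, 1.39 times in E1 S1S2, 1.87 times in E2 and 1.64 times in E1E2, then 3.55 times in 6KO1, 4.45 times in E1E2 G9Gl and 2.99 times in 6KO2, and all mutant libraries were above all WT libraries. Scaled by the repeats and not by the genes, the LTR and internal sums of E1E2 G9Gl were 1.28 and 2.46 times the WT mean and those of 6KO1 1.25 and 2.29 times. In bulk RNA, more transcript per cell and more cells with transcript cannot be told apart.

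**Figure D1:**
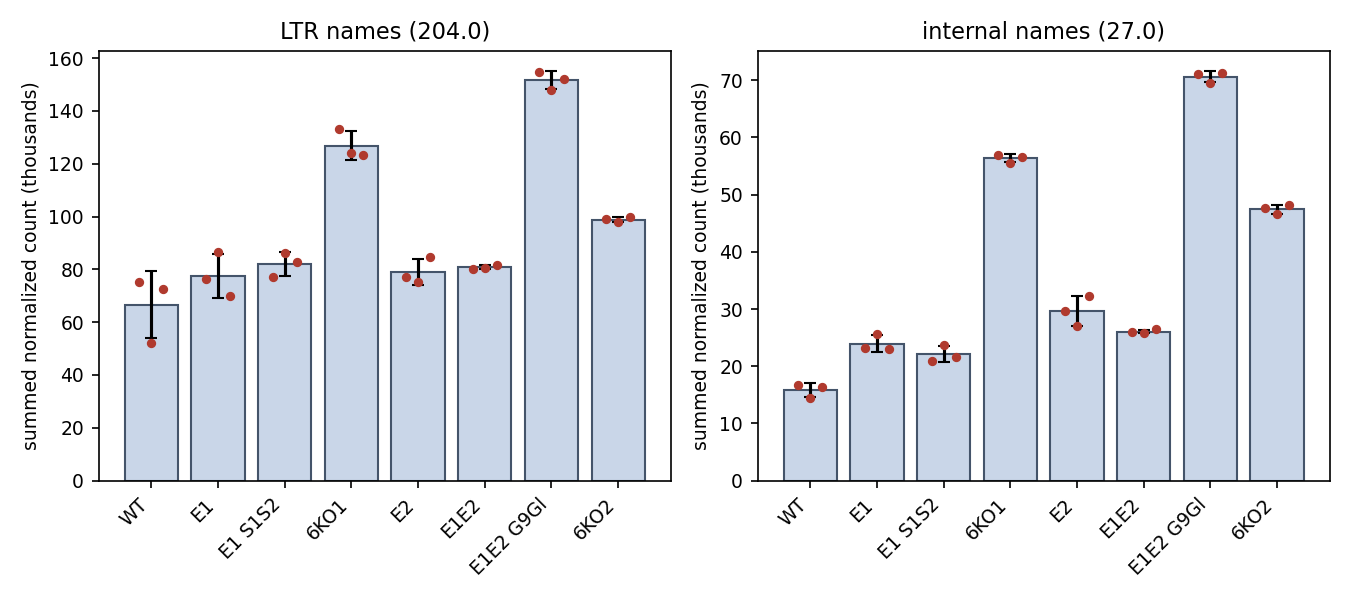
Summed normalized counts (divided by 1000, linear axis from 0) of the 204 LTR names and the 27 internal names in the 8 conditions; bars are means, error bars SD and points the 3 libraries. The E1E2 G9Gl bars are the highest in both panels, at 2.28 times (LTR) and 4.45 times (internal) the WT mean.

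A few internal regions made up most of the internal sum, and which ones these were changed between conditions. In WT, MYSERV6-int held 35% of the internal counts and RLTR19-int 21.9%. In 6KO1, RLTR45-int held 15% and ERVB4_2-I_MM 13.4%, in E1E2 G9Gl ERVB4_2-I_MM held 20.1%, and in 6KO2 RLTR45-int held 26.6% and RMER16-int 14.3%. Of the LTR sum in WT, the 10 highest of the 204 names held 39.3% and RMER6A alone 8.27%. The 231 names together accounted for 72% to 75.8% of all ERVK counts in the WT libraries. They accounted for 40.1% to 43.1% in E1, 15.6% to 17.3% in 6KO1, 29.5% to 30.8% in E1E2 G9Gl and 24.2% to 25.2% in 6KO2, the remainder being the IAP, MMERVK, RLTR10 and ETn names.

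Element by element, derepression was rare in the lines with G9a and Glp intact and common in the 3 lines without them. Of the 231 names, 225 had enough counts for the test, 198 LTR and all 27 internal names, among 1217 repeat elements tested in all. The 6 others were LTR names (BGLII_C, ERVB4_1-LTR_MM, RLTR13D, RLTR3_Mm, RLTR46A2 and RLTR9A4) with mean counts of at most 4.17. Upregulated means here that the log2 fold change was 1 or more with an adjusted p of 0.01 or less (edgeR quasi-likelihood test, two-sided, Benjamini-Hochberg adjustment over all 1217 elements). In E1, 14 of the 225 were upregulated, or 6.22% against 4.6% of all tested elements. E1 S1S2 had 25 (11.1% against 6.41%), E2 had 21 (9.33% against 4.93%) and E1E2 had 25 (11.1% against 5.51%). In 6KO1, 126 were upregulated (56% against 32.8%), in E1E2 G9Gl 155 (68.9% against 41.4%) and in 6KO2 88 (39.1% against 22.4%). Without WT replicate 2 these counts, in the same order from E1, became 11, 20, 15, 17, 109, 142 and 79. Scaling by the repeats in place of the genes moved the median of all tested elements in E1E2 G9Gl from 0.78 to -0.07 on the log2 scale and left 91 members upregulated there, 77 in 6KO1 and 68 in 6KO2.

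Fold changes of all members moved with the counts. The median log2 fold change of the 225 elements was 0.19 in E1 against 0.10 over all 1217, 0.33 against 0.20 in E1 S1S2, 0.24 against 0.11 in E2 and 0.32 against 0.15 in E1E2. It was 1.46 against 0.78 in E1E2 G9Gl, 1.12 against 0.56 in 6KO1 and 0.75 against 0.29 in 6KO2. All 3 mutant libraries exceeded all 3 WT libraries for 51 members in E1 (22.7% against 13.7% of all tested elements), 94 in E1 S1S2 (41.8% against 27.3%), 75 in E2 (33.3% against 17.8%) and 104 in E1E2 (46.2% against 25.6%). The same held for 211 members in E1E2 G9Gl (93.8% against 66.1%), 164 in 6KO2 (72.9% against 45.1%) and 206 in 6KO1 (91.6% against 58.2%). No member was called downregulated against WT in any of the 7 comparisons by edgeR, and DESeq2 called none either; without WT replicate 2, 2 members were called downregulated in E1 S1S2, and without E1 S1S2 replicate 3, 1 was. At an unadjusted p under 0.05, 5 members were lower in E1 S1S2, 4 in E2, 2 in E1E2 and 1 in 6KO2, and 0 in E1, 6KO1 and E1E2 G9Gl. By the same cut, 68, 75, 61 and 96 of the 1217 tested elements were lower in E1 S1S2, E2, E1E2 and 6KO2. The numbers in E1, 6KO1 and E1E2 G9Gl were 40, 85 and 59. Of all tested elements, 0.247% were downregulated in E1, 2.3% in E2, 1.56% in E1E2 and 0.74% in E1 S1S2, and 2.63% in 6KO1, 2.05% in 6KO2 and 2.05% in E1E2 G9Gl.

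Pooled over both name forms, internal regions were called more often than LTRs in each mutant. In E1, 4 of 27 internal names (14.8%) and 10 of 198 LTR names (5.05%) were upregulated. The corresponding shares were 22.2% and 9.6% in E1 S1S2, 22.2% and 7.58% in E2, 29.6% and 8.59% in E1E2, 74.1% and 53.5% in 6KO1, and 48.1% and 37.9% in 6KO2. In E1E2 G9Gl they were nearly level, at 70.4% and 68.7%, although the median log2 fold change there was 1.95 for internal names and 1.39 for LTR names. The 19 -int names alone were called less often than the LTR names in E1E2 G9Gl (63.2%) and 6KO2 (36.8%), and more often in the other mutants. The 8 -I names were at 87.5% in E1E2 G9Gl and 75% in 6KO2. The difference between both kinds was not tested, since an internal name and its LTR often lie in the same transcripts.

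**Figure D2:**
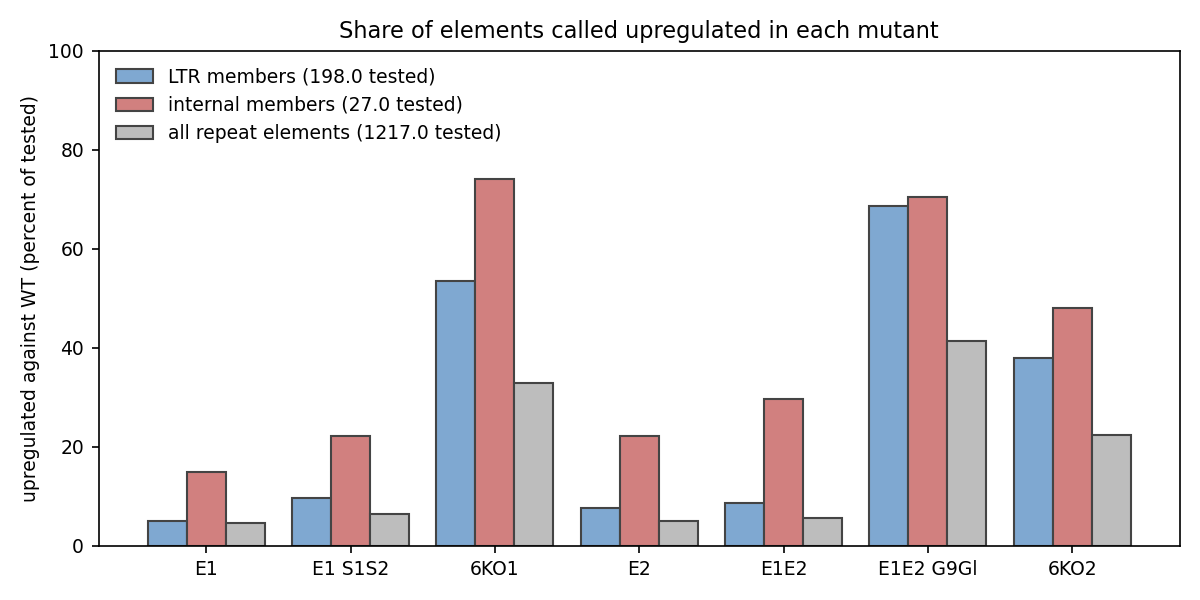
Percent of tested LTR names (198), internal names (27) and all tested repeat elements (1217) upregulated against WT in each mutant, on a linear axis from 0. In every mutant both kinds lie above all elements together, and the highest shares are 74.1% of the internal names in 6KO1 and 68.7% of the LTR names in E1E2 G9Gl.

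A set of 10 names was upregulated in all 7 mutants, 4.44% of the tested members where 3.04% of all tested elements (37 of 1217) had this pattern, and they are the same 10 that were upregulated in all of E1, E1 S1S2, E2 and E1E2: the internal regions RLTR45-int, ERVB4_1B-I_MM and ERVB4_2-I_MM and the LTRs RLTR45, ERVB4_1B-LTR_MM, ERVB3_1-LTR_MM, RLTR1F_Mm, RMER16, RLTR11B and RLTR17C_Mm. RLTR45-int, the internal region named after the RLTR45 LTR, had normalized counts of 107, 68.5 and 84.3 in WT and 2368, 2866 and 2701 in E1. It reached 1003, 1115 and 1046 in E1 S1S2, 5898, 4854 and 6448 in E2 and 2920.0, 2968 and 3170.3 in E1E2, and in the lines without G9a and Glp 5676, 5561 and 5848 in E1E2 G9Gl, 12813, 12437 and 12539 in 6KO2 and 8164, 8544 and 8635 in 6KO1. Every mutant library was thus far above every WT library, and the untreated E2 clone was above both E1 and E1E2. Its log2 fold change was 4.94 (edgeR adjusted p = 9.7e-32, SE 0.14) in E1 and 7.19 (edgeR adjusted p = 3.8e-37, SE 0.15) in 6KO2. The RLTR45 LTR itself rose less, with levels of 87.4, 65.7 and 71.3 in WT, 376, 389.9 and 390.4 in E1 and 3051, 3262 and 3216 in E1E2 G9Gl and log2 fold changes of 2.37 and 5.41.

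ERVB4 names a group of betaretrovirus-like elements, and its internal regions behaved in different ways. ERVB4_1B-I_MM was 135, 122 and 105 in WT, 2633, 2994 and 2838 in E1, 2366, 2393 and 2296 in E1E2, 6412, 6843 and 6947 in 6KO1 and 3032, 2875 and 3082 in 6KO2. It was already near its 6KO2 level in E1, with a log2 fold change of 4.54 (edgeR adjusted p = 1.6e-32, SE 0.12) in E1 and 5.80 in 6KO1. ERVB4_2-I_MM was 145, 91.3 and 136 in WT, 1183, 1210.2 and 1120.2 in E1, 2041, 1972 and 2015 in E1E2 and 14272, 13849 and 14538 in E1E2 G9Gl. Its log2 fold change was 3.24 (edgeR adjusted p = 1.9e-25, SE 0.13) in E1 and 6.84 (edgeR adjusted p = 7.0e-37, SE 0.15) in E1E2 G9Gl, and no library of either group overlapped WT. ERVB4_1-I_MM stayed low in E1 (13.7, 15.8 and 10.6, WT 9.59, 11 and 9.03) but reached 145, 223 and 124 in E2 and 174, 173 and 189 in 6KO2, log2 fold changes of 0.42, 4.05 and 4.16, of which the first was not called. ERVB4_3-I_MM was called in E1 S1S2, at 149, 166 and 139 against 51.1, 49.3 and 66.2 in WT, and its log2 fold change was 1.44 there and 3.01 in 6KO1. ERVB4_1B-LTR_MM, the LTR of the same name, was called in all 7 mutants on low counts, 17, 3.65 and 16.1 in WT against 37.1, 26.7 and 33.4 in E1, and without WT replicate 2 its log2 fold changes of 1.43 in E1, 1.14 in E2 and 1.07 in E1E2 became 0.97, 0.68 and 0.61, none of them called. Its call in E2 was also lost without E2 replicate 1 or 3, and that in E1E2 without E1E2 replicate 1 or 3.

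The LTR name with the largest rise in E1 was RLTR1F_Mm, at 54.3, 47.5 and 46.2 in WT and 1975, 2047 and 1791 in E1, a log2 fold change of 5.29 (edgeR adjusted p = 3.9e-32, SE 0.15). It stayed raised in every mutant, and its libraries held 1502 to 1519.8 in E1 S1S2, 1116 to 1531 in E2, 2182 to 2336 in E1E2 G9Gl, 2345 to 3184 in 6KO2 and 5981 to 6209.9 in 6KO1. ERVB3_1-LTR_MM went from 5.33, 3.65 and 4.01 in WT to 17.6, 14.8 and 21.1 in E1 and 225, 225 and 236 in 6KO1, log2 fold changes of 2.03 and 5.69. RLTR11B and RLTR17C_Mm rose by less. RLTR11B was 428 ± 74.7 in WT, 949.8 ± 55.7 in E1 and 1295 ± 5.44 in 6KO1 (SD, n = 3), with log2 fold changes between 1.15 in E1 and 1.60 in 6KO1. RLTR17C_Mm was 142, 125 and 137 in WT, 278, 363 and 237 in E1 and 811, 824 and 795 in E1E2 G9Gl, and its call in E1, at 1.12, was lost at 0.93 without E1 replicate 2. RMER16, an LTR, rose from 61.8, 44.7 and 56.2 in WT to 120.2, 127 and 113 in E1 and 879, 867 and 828 in E1E2 G9Gl, log2 fold changes of 1.15 and 3.99.

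RLTR9A3A and RMER16-int were raised in some of the early lines and not in E1 S1S2. RLTR9A3A, an LTR, had levels of 5.33, 4.57 and 8.03 in WT, 90.9, 80 and 59.8 in E1 and 11.7, 10.9 and 7.2 in E1 S1S2, against 686, 500.4 and 705 in E2, 263, 229 and 228 in E1E2 and 998, 1005 and 904 in 6KO2. The log2 fold change was 3.66 (edgeR adjusted p = 1.4e-15, SE 0.27) in E1, 0.74 (edgeR adjusted p = 0.18, SE 0.41) in E1 S1S2 and 6.69 (edgeR adjusted p = 2.6e-30, SE 0.21) in E2. The libraries of E1 S1S2 and WT overlapped, and those of all other mutants did not overlap WT. RMER16-int was 859.9, 689 and 850.1 in WT, 1586, 1828 and 1509.7 in E1, 736, 961 and 827 in E1 S1S2, 3826, 3197 and 4005 in E2 and 8519.8, 8233 and 8711 in E1E2 G9Gl. Its log2 fold change was 1.04 in E1, which became 0.94 without WT replicate 2 and 0.95 without E1 replicate 2 and was then not called, 2.20 in E2 and 3.41 in E1E2 G9Gl, and the libraries of E1 S1S2 overlapped WT. RMER17A-int was called in all mutants but E1, with levels of 43.7, 37.4 and 48.2 in WT, 249.8, 192 and 285 in E2 and 607, 655 and 674 in 6KO1 and log2 fold changes of 0.65 in E1, 2.48 in E2 and 3.90 in 6KO1.

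**Figure D3:**
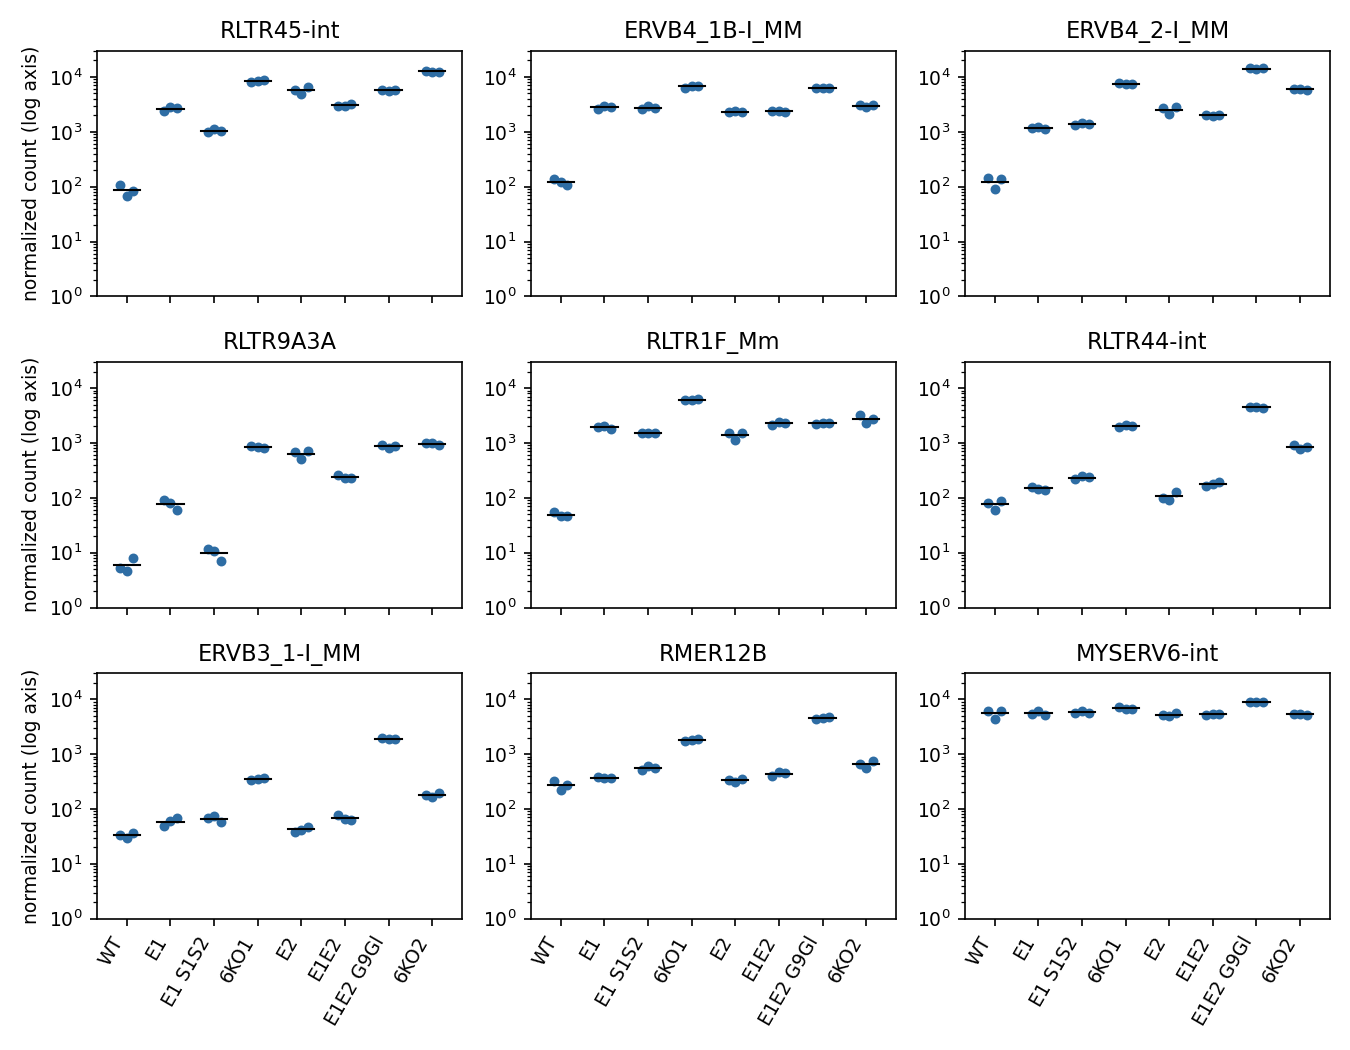
Normalized counts (log axis) of 9 members in the 24 libraries. Points are libraries, and a short horizontal line marks the mean of each of the 8 conditions. RLTR45-int, ERVB4_1B-I_MM and RLTR1F_Mm leave the WT level in every mutant, ERVB3_1-I_MM, RLTR44-int and RMER12B peak in E1E2 G9Gl, and MYSERV6-int stays between 4403 and 9064.

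A larger set was raised when G9a and Glp were also lost: 52 members were upregulated in E1E2 G9Gl, 6KO1 and 6KO2 and in none of the other 4 mutants, 23.1% of the tested members against 13.1% of all tested elements. In all, 161 members were called in at least 1 of these 3 lines (71.6%, against 45% of all tested elements), 87 in each of the 3 (38.7% against 20.6%) and 34 in E1E2 G9Gl alone (15.1% against 11%). These comparisons share the WT libraries. RLTR44-int, ERVB3_1-I_MM and RMER12B had their highest levels in E1E2 G9Gl and were also called in E1 S1S2 or E1E2. RLTR44-int, the internal region of the RLTR44 elements, was 79.9, 61.2 and 87.3 in WT, 159, 145 and 141 in E1, 164, 176 and 197 in E1E2, 4442, 4569.6 and 4346 in E1E2 G9Gl, 918, 765 and 836 in 6KO2 and 1971, 2081 and 2071 in 6KO1. Its log2 fold change was 0.97 (edgeR adjusted p = 2.4e-07, SE 0.14) in E1, short of the threshold of 1 (passed at 1.00 to 1.08 without WT replicate 1, WT replicate 3 or E1 replicate 3), and 5.87 (edgeR adjusted p = 4.0e-37, SE 0.13) in E1E2 G9Gl. ERVB3_1-I_MM, an internal region of the ERVB3 elements, was 34.1, 29.2 and 37.1 in WT, 77.8, 66.4 and 64.1 in E1E2, 1971, 1910.2 and 1852 in E1E2 G9Gl, 180.0, 162 and 193 in 6KO2 and 339, 346 and 374 in 6KO1. The E1E2 G9Gl libraries were above those of both lines with all 6 genes mutated, and the log2 fold change against WT was 5.83 (edgeR adjusted p = 2.6e-35, SE 0.14) in E1E2 G9Gl but 3.40 and 2.42 in 6KO1 and 6KO2. RMER12B, an LTR with a substantial WT level of 323, 222 and 273, reached 4374, 4592 and 4655 in E1E2 G9Gl but 654, 548 and 754 in 6KO2, log2 fold changes of 4.06 (edgeR adjusted p = 1.5e-32, SE 0.12) and 1.26. Its call in E1 S1S2, at 1.05, and that of ERVB3_1-I_MM in E1E2, at 1.06, fell to 0.92 and 0.96 without WT replicate 2, the latter also to 0.97 without E1E2 replicate 1.

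Other internal regions rose by smaller steps in the same 3 lines. MurERV4_19-int was 389 ± 7.02 in WT, 2451 ± 69.6 in E1E2 G9Gl and 1167 ± 25.3 in 6KO1 (SD, n = 3), log2 fold changes of 2.66 and 1.59, while 6KO2 at 0.97 was not called. MYSERV-int had log2 fold changes of 1.46 in 6KO1, 1.95 in E1E2 G9Gl and, not called, 0.53 in 6KO2, and MYSERV16_I-int of 1.93, 1.69 and 1.39. SRV_MM-int was 91.6, 61.2 and 82.3 in WT, 638, 586 and 572 in 6KO1 and 137, 139 and 156 in 6KO2, and was called in 6KO1 (2.94) and E1E2 G9Gl (2.65) but not in 6KO2 (0.88, 1.01 and called without WT replicate 1). These 4 were thus highest in 6KO1 or E1E2 G9Gl and lower in 6KO2. RNERVK23-int was called in 6KO1 alone, at 1333, 1321 and 1302 against 265, 303 and 259.9 in WT, with log2 fold changes of 2.25 there, 0.83 in 6KO2 and 0.88 in E1E2 G9Gl. RMER17C-int rose by 2.07, 2.56 and 1.99 in these 3 lines, and RMER3D-int, from 421 to 590.3 in WT, was at 1791 to 1847, 2784 to 2877 and 1269 to 1385 in them and at 930.3 to 1159, not called, in E1.

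A further 5 internal regions were called in some of these 3 lines and in no other. ERVB2_1-I_MM, an internal region with few counts, was 5.33, 9.13 and 4.01 in WT, 115, 106 and 97.1 in E1E2 G9Gl but 20.7, 8.0 and 8.84 in 6KO2, the last overlapping WT, with log2 fold changes of 4.06 (edgeR adjusted p = 2.9e-15, SE 0.33) and 1.01 (edgeR adjusted p = 0.073, SE 0.47). ERVB5_1-I_MM rose by 2.37 in E1E2 G9Gl, by 1.47 in 6KO1 and by 1.11 in 6KO2 on the log2 scale, the last falling to 0.94 without WT replicate 1 and 0.96 without 6KO2 replicate 1. MERVK26-int passed the threshold in E1E2 G9Gl alone, at 1.09 (0.93 without WT replicate 2, 0.94 without E1E2 G9Gl replicate 1), RLTR42-int in 6KO1 (1.24) and E1E2 G9Gl (1.55), and RMER6-int in 6KO1 alone (1.05, 0.94 without WT replicate 2 and 0.99 without 6KO1 replicate 1).

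Some of the LTR names with the largest log2 fold changes, RLTR19D, RLTR12F and RLTR50A, had almost no counts in WT, where a fitted fold depends on the pseudocount. RLTR9A3A and RLTR1F_Mm, described above, also ranked among the highest in 6KO1, at 7.11 and 6.95 on the log2 scale. RLTR19D had 0 counts in the 3 WT libraries and in those of E1 and E2, and 29, 45 and 35 raw counts in 6KO1, 33, 24 and 21 in 6KO2, but 70, 81 and 73 in E1E2 G9Gl. Against a floor of 3 counts over the WT group this was at least 33.3-fold higher in 6KO1, at least 88.2-fold in E1E2 G9Gl and at least 28.7-fold in 6KO2. RLTR12F had 2 counts over the WT libraries and was 73, 74.9 and 83.1 in 6KO1, 109, 102 and 129 in 6KO2, but 20.5, 27.8 and 24.6 in E1E2 G9Gl, ratios to WT of 116 (95% interval 31.9 to 966), 172 (47.1 to 1423) and 36.6 (9.72 to 309). RLTR50A, also with 2 WT counts, had ratios of 65.0 (17.7 to 542), 49.1 (13.2 to 412) and 119.9 (32.8 to 997) in the same order. RLTR12F was therefore highest in 6KO2, whereas RLTR19D and RLTR50A were highest in E1E2 G9Gl. These intervals and the floor cover counting error only. RLTR44B, with 6.39, 4.57 and 5.02 in WT, reached 349.5, 358 and 345 in E1E2 G9Gl and 113, 100.1 and 69.4 in 6KO1, log2 fold changes of 6.02 and 4.13.

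The other end was formed by 63 members, 57 LTR and 6 internal names, that were called in no mutant. These were 28% of the tested members, where 54.7% of all tested elements were upregulated in no mutant. MYSERV6-int, the most abundant internal region in WT, was 6208, 4403 and 6039 in WT, 5372, 5278 and 5257 in 6KO2 and 8976, 8829 and 9064 in E1E2 G9Gl. Its log2 fold change of 0.69 (edgeR adjusted p = 3.7e-07, SE 0.11) in E1E2 G9Gl passed the p threshold and not that of size. RLTR19-int was 3131, 4237 and 3072 in WT and 5013, 4869 and 5120.1 in E1E2 G9Gl (0.52), and MurERV4-int 2034, 1467 and 1967 and 2594, 2381 and 2425 (0.44). When the libraries were scaled by the repeats and not by the genes, these 3 log2 fold changes turned to -0.14, -0.38 and -0.40, so that their direction depends on the scale. MMTV-int, the internal region of mouse mammary tumour virus, lay between 19.2 and 36.2 in WT and 19.4 to 29.8 in E1E2 G9Gl. RLTR18-int was 378 to 491 in WT and 379 to 481 in E1E2 G9Gl, with overlap, and 494 to 562 in 6KO1, above every WT library (0.30). ERVB2_1A-I_MM was 68.2 to 103 in WT and overlapped it in 6KO2 (91 to 109.7), but its libraries were above WT in E1E2 G9Gl (123 to 139) and 6KO1 (114 to 128), at 0.54 and 0.46 on the log2 scale and under the threshold of size. Scaled by the repeats, these values of RLTR18-int in 6KO1 and of ERVB2_1A-I_MM in E1E2 G9Gl and 6KO1 turned to -0.33, -0.32 and -0.18. Of the 6 LTR names with the highest mean level, RLTR1F_Mm was among the 10 called in all mutants and RMER6C was called in E1E2 G9Gl alone, at 1.37. The other 4 were not called in any mutant: RMER6A was 5511 ± 1079 in WT and 6856 ± 86.5 in E1E2 G9Gl (SD, n = 3), RLTR20A4 3411 ± 812 and 3880.2 ± 177, RMER4B 3200.1 ± 623 and 4347 ± 50.8, and RMER19B 4415 ± 942 and 8019.7 ± 308. The counts pool all copies of a name, including copies that lie inside other transcripts, so a high WT level cannot be assigned to an active LTR.

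By name series, every tested member was upregulated in some and hardly any in others. All 6 tested RLTR44 members, all 9 of RMER16, all 5 of ERVB7, all 12 of RLTR9 and all 8 of ERVB4 were upregulated in E1E2 G9Gl (41.4% of all tested elements), with median log2 fold changes of 3.92, 3.32, 3.24, 2.81 and 2.78. In 6KO1 (32.8% of all tested elements) the same series had 5, 9, 5, 10 and 8 members upregulated, and in 6KO2 (22.4%) 5, 7, 5, 10 and 8. ERVB4 was the one of these 5 with higher medians in 6KO1 (4.32) and 6KO2 (3.86) than in E1E2 G9Gl. In E1 S1S2 (6.41%) 7 of 8 ERVB4 and 5 of 6 RLTR44 members were called, where E1 (4.6%) had 3 ERVB4 members called. The RLTR13 series, with 22 tested members, had 14 upregulated in E1E2 G9Gl against 13 and 11 in 6KO1 and 6KO2. The 16 RLTR20 members had 6 upregulated in E1E2 G9Gl and 4 in 6KO1, and the 6 RMER6 members 1 in each.

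**Figure D4:**
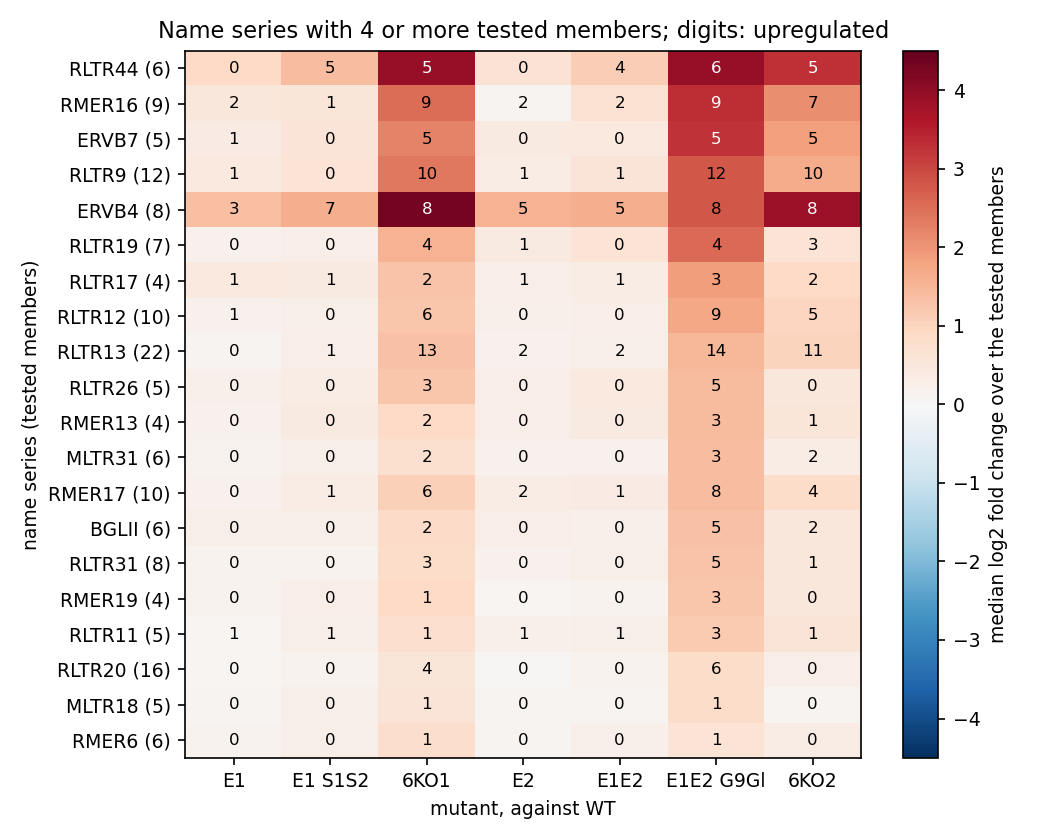
Median log2 fold change against WT (colour) of the 20 name series with at least 4 tested members in the 7 mutants; the digits give the number of upregulated members. RLTR44, RMER16 and ERVB7 have the highest medians in E1E2 G9Gl (3.92, 3.32 and 3.24), and ERVB4 is raised across all columns.

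For 12 internal regions the LTR of the same name was tested as well. Both names of a pair were upregulated for 3 pairs in E1, 5 in E1E2 and 4 in each of E1 S1S2 and E2, and for 8 in 6KO1, 7 in 6KO2 and 9 in E1E2 G9Gl. In E1E2, 6KO1, E1E2 G9Gl and 6KO2 the internal name alone was called for 1, 2, 1 and 2 pairs and in no case the LTR alone, while in E1, E1 S1S2 and E2 the internal name alone was called for 1 pair in each and the LTR alone for 1, 2 and 1. For RLTR45 and ERVB4_1B the internal region rose more than the LTR in E1, by 4.94 against 2.37 and 4.54 against 1.43 on the log2 scale. For ERVB3_1 it was the LTR that was called in E1, at 2.03, while the internal region was at 0.81. In 6KO1, RMER16 rose by 3.63 and RMER16-int by 2.90.

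Treatment with 4-OHT deletes Eset1, and its effect could be read in the parent line (E1 against WT) and in the Eset2-mutated clone (E1E2 against E2). In the parent line 14 members rose. In the clone 2 rose, ERVB3_1-LTR_MM by 1.04 and RLTR44C by 1.33 on the log2 scale, and 2 fell, ERVB4_1-I_MM by 1.79 and RLTR9A3A by 1.39, against 0.411% of all tested elements in either direction. RLTR44C was named after its values were seen, and the call of ERVB3_1-LTR_MM was lost, at 0.82 to 0.99, without E2 replicate 1, E1E2 replicate 1 or E1E2 replicate 2, which left 1 member that rose. The difference between both effects was negative for 16 members, or 7.11% against 4.27% of all tested elements. It was positive for none by edgeR and by DESeq2, against 0.493% of all tested elements. Positive here means a larger rise in the clone. At an unadjusted p under 0.05 it was positive for 2 members, against 47 of the 1217 tested elements. Without WT replicate 2 it was called negative for 12 and positive for 1. ERVB4_1B-LTR_MM and RMER17A-int were among the negative calls lost there. At RLTR45-int the difference was -5.87 (edgeR adjusted p = 5.2e-30, SE 0.18), as its level went from 86.5 ± 19.1 to 2645 ± 254 in the parent line and from 5734 ± 809.6 to 3019.5 ± 133 in the clone (SD, n = 3). RLTR1F_Mm followed at -4.58 (edgeR adjusted p = 6.4e-26, SE 0.18), ERVB4_1B-I_MM at -4.53 (edgeR adjusted p = 2.1e-28, SE 0.16) and ERVB4_2-I_MM at -3.56 (edgeR adjusted p = 2.9e-22, SE 0.18), and all 4 were already high in the untreated clone. E2 against WT had 21 upregulated members, among them RMER17D, the member called in an early line and in none of the 3 lines without G9a and Glp: it was 118, 84 and 133 in WT and 303, 241 and 364 in E2, a log2 fold change of 1.43 (edgeR adjusted p = 6.0e-11, SE 0.15), and it was named after its values were seen. Setdb1 RNA was at 1018 to 1398 in E2, below WT and overlapping E1E2. These counts cover the whole gene and not the floxed exons alone. The study checked the deletion with RT-qPCR of the deleted exons or with western blots of the protein.

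In the first series, where Suv39h1 and Suv39h2 were mutated beside Eset1, few members passed the thresholds at this step. E1 S1S2 against E1 had 1 member higher, RLTR46B by 2.02 on the log2 scale, against 1.48% of all tested elements, and 3 lower, RLTR9A3A (-2.92), RLTR45-int (-1.33) and RLTR47 (-1.14), against 1.15%. RLTR46B, at 12.7, 8.88 and 14.1 in E1 and 50.1, 48 and 48.6 in E1 S1S2, and RLTR47, at 181, 166 and 158 and 75.1, 79.7 and 74.7, were named after their values were seen, and neither had overlapping libraries. Leaving out any of the E1 libraries, or E1 S1S2 replicate 1 or 2, made 2 members higher in place of 1. Smaller shifts were more frequent. At an unadjusted edgeR p under 0.05, 47 members were higher and 20 lower, against 168 and 80 of the 1217 tested elements. All E1 S1S2 libraries were above all E1 libraries for 48 members (21.3% against 16.4% of all tested elements). They were below them for 23 (10.2% against 8.05%). The next step of this series, to 6KO1, raised 97 members, or 43.1% against 23.8% of all tested elements. It lowered none by edgeR or DESeq2, against 0.575% of all tested elements. At an unadjusted p under 0.05, 1 member was lower, against 64 of the 1217 tested elements. Among the 97, RLTR44-int rose by 3.13 (edgeR adjusted p = 1.8e-28, SE 0.11) and RMER16-int by 2.82 (edgeR adjusted p = 4.5e-25, SE 0.12). RLTR9A3A rose by 6.37 on the log2 scale, from 9.94 ± 2.41 to 840.4 ± 49 (SD, n = 3).

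In the second series G9a and Glp were mutated before Suv39h1 and Suv39h2, and the large rise came at the first of these steps. E1E2 G9Gl against E1E2 had 114 members higher, or 50.7% against 33.6% of all tested elements. None was lower by edgeR or DESeq2, against 0.904% of all tested elements. At an unadjusted p under 0.05, 2 members were lower, against 55 of the 1217 tested elements. ERVB3_1-I_MM rose by 4.78 (edgeR adjusted p = 4.9e-33, SE 0.13), RLTR44-int by 4.64 (edgeR adjusted p = 3.0e-34, SE 0.12) and RMER12B by 3.37 (edgeR adjusted p = 1.3e-29, SE 0.11). RLTR45-int and RLTR1F_Mm, already high in E1E2, moved less, RLTR45-int by 0.92 on the log2 scale, not called, while the libraries of RLTR1F_Mm overlapped, at 2149 to 2379 in E1E2 and 2182 to 2336 in E1E2 G9Gl. The trophoblast marker sum was 264 to 397 in E1E2, 1413 to 1490 in E1E2 G9Gl and again near its E1E2 level in 6KO2, at 250 to 395. It went from 122 to 137 in E1 S1S2 to 966 to 1051 in 6KO1, and its part in these steps was not tested.

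At the last step of this series, in which Suv39h1 and Suv39h2 were mutated, more members were lower than higher. Other enzymes differed in RNA between these lines. Ehmt2 was 937 to 1041 in E1E2 G9Gl and 2090 to 2292 in 6KO2, and Suv39h2 355 to 370 and 475 to 556. Their part in this step was not tested, and clone and genotype cannot be told apart. Against E1E2 G9Gl, 6KO2 had 66 members lower, or 29.3% against 17% of all tested elements, and 7 higher, or 3.11% against 1.89%. ERVB3_1-I_MM fell by 3.42, ERVB2_1-I_MM by 3.06, RMER12B by 2.80 and RLTR44-int by 2.41 on the log2 scale. RMER12B stayed above its WT level, at 548 to 754 in 6KO2 and 222 to 323 in WT. RLTR44E, named after its values were seen, went from 358, 355 and 400.2 in E1E2 G9Gl to 52.7, 37.7 and 46.4 in 6KO2, where it overlapped the 22.8 to 49 of WT. The 7 that rose were RLTR12F, ERVB4_3-LTR_MM, ERVB4_1-I_MM, RLTR46A, ERVB4_3-I_MM, RLTR45-int and RMER17A-int. RLTR45-int went up by 1.15 (edgeR adjusted p = 7.4e-12, SE 0.11) and ERVB4_1-I_MM by 1.45 (edgeR adjusted p = 4.9e-09, SE 0.19), 3 of the 7 being ERVB4 names. RMER17A-int, at 1.06, fell to 0.94 without E1E2 G9Gl replicate 2 and to 0.99 without 6KO2 replicate 1. When the libraries were scaled by the repeats alone, 28 members were lower and 11 higher.

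**Figure D5:**
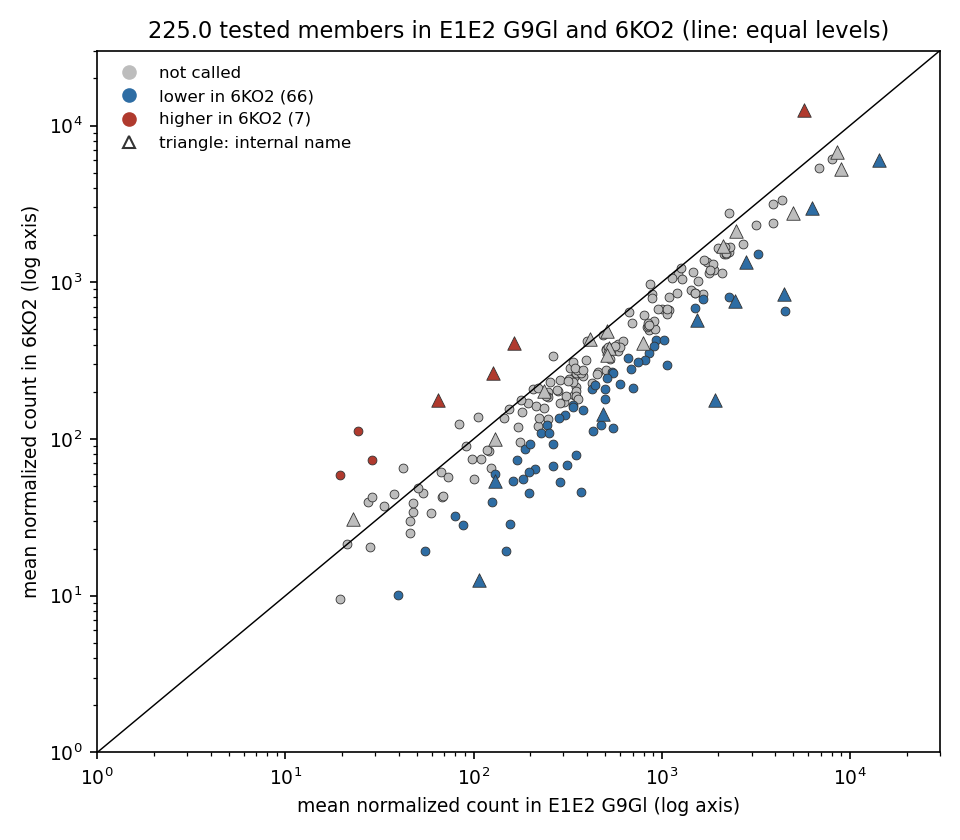
Mean normalized counts (n = 3) of the tested members in E1E2 G9Gl (horizontal) and 6KO2 (vertical), both on log axes; blue marks the 66 members lower in 6KO2, red the 7 higher, and triangles internal names. Most points lie below the diagonal, and the red points include RLTR45-int and RLTR12F.

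The effect of mutating Suv39h1 and Suv39h2 was compared directly between both backgrounds. It was more negative in the E1E2 G9Gl background than in E1 for 73 members, or 32.4% against 19.1% of all tested elements. It was more positive for 2, RLTR9A3A at 3.08 and RLTR45-int at 2.47, or 0.889% against 1.56%. Without E1 S1S2 replicate 1 it was more positive for 4, and scaled by the repeats it was more negative for 27 and more positive for 11. RMER12B went from 373 ± 8.15 in E1 to 561 ± 36.8 in E1 S1S2, but from 4540.3 ± 147 in E1E2 G9Gl to 652 ± 103 in 6KO2 (SD, n = 3), a difference of -3.39 (edgeR adjusted p = 1.1e-23, SE 0.15) on the log2 scale. The difference was -3.06 (edgeR adjusted p = 1.3e-21, SE 0.15) for RLTR44-int, -3.60 (edgeR adjusted p = 1.1e-20, SE 0.19) for ERVB3_1-I_MM and -2.28 (edgeR adjusted p = 1.0e-18, SE 0.14) for MurERV4_19-int. The backgrounds are different clones that also differ in Eset2, G9a and Glp.

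The 2 lines with all 6 genes mutated differed at a minority of members. Against 6KO2, 6KO1 had 22 members higher, or 9.78% against 5.09% of all tested elements. None was lower by edgeR or DESeq2, against 1.4% of all tested elements. At an unadjusted p under 0.05, 8 members were lower, against 68 of the 1217 tested elements. The largest differences were those of SRV_MM-int at 2.06 (edgeR adjusted p = 1.5e-17, SE 0.13), RLTR19A at 2.03, RLTR46B at 1.98 and ERVB3_1-LTR_MM at 1.83, RLTR19A and RLTR46B being named after their values were seen. SRV_MM-int was 638, 586 and 572 in 6KO1 and 137, 139 and 156 in 6KO2, and RLTR46B 166, 180.2 and 157 and 47.6, 48 and 32, without overlap. RNERVK23-int (1.43), RLTR44-int (1.28), RMER17A-int (1.29) and ERVB4_1B-I_MM (1.17) were also higher in 6KO1. RLTR45-int pointed the other way without reaching the threshold, at -0.58. The trophoblast marker sum was 966 to 1051 in 6KO1 and 250 to 395 in 6KO2, the macrophage sum 587 to 644 and 217 to 249, and their part in these differences was not tested.

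Of the genes that silence ERVs, 28 were followed: the methyltransferases, TRIM28 and SETDB1's partner ATF7IP, the HUSH complex with MORC2A, MORC3, DNA methylation factors, HP1 proteins and chromatin remodellers and chaperones. Atf7ip, which stabilizes SETDB1, was upregulated in all 7 mutants, with log2 fold changes from 1.57 in E1 S1S2 to 2.11 in 6KO1. It was the one gene of the list to rise in E1, E1 S1S2, E2, E1E2 and 6KO2, while in 6KO1 (3 of 28, against 20.6% of all tested genes) and E1E2 G9Gl (3 of 28, against 16.8%) Morc3 and Fam208a, a HUSH subunit, rose as well. In E1, E1 S1S2, E2, E1E2 and 6KO2 the shares of all tested genes that rose were 2.27%, 6.65%, 2.9%, 5.51% and 15.3%. The genes that fell were mostly the mutated enzymes: Suv39h1 in E1 S1S2 (5.11% of all tested genes fell), Setdb2 in E2 (3.21%), E1E2 (3.22%) and 6KO2 (5.39%), Ehmt1, Ehmt2, Suv39h1 and Pphln1 in 6KO1 (10.2%), and Ehmt1, Ehmt2, Setdb1, Setdb2 and Suv39h2 in E1E2 G9Gl (8.41%), where Suv39h2 had not been targeted. In E1, where 1.99% of all tested genes fell, Setdb1 stood at -0.57 on the log2 scale and was not called. Trim28 was at 0.12 in E1 and -0.70 in E1E2 G9Gl and was not called in any mutant.

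The ERVK elements set aside and the ERVL family give the levels of change around these members. Of the 25 IAP names, 11 were upregulated in E1, 23 in 6KO1, 21 in the E1E2 G9Gl line and 20 in 6KO2, with median log2 fold changes of 0.50, 3.59, 2.56 and 2.49, where the members had 0.19, 1.12, 1.46 and 0.75. The highest of these medians was that of 6KO1 for the IAP names and that of E1E2 G9Gl for the members. In E1E2 G9Gl and in 6KO2 2 of the 25 IAP names were downregulated as well. Of the 20 MMERVK, RLTR10 and ETn names, 7 were upregulated in E1, 20 in 6KO1 and 18 in E1E2 G9Gl. The 96 tested elements of the ERVL family had 10 upregulated in 6KO2, 27 in 6KO1 and 40 in E1E2 G9Gl. These are counts side by side, and the difference between the groups of elements was not tested.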

How the data were processed

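RNA counts of 24 libraries of mouse embryonic fibroblasts were used, 3 in each of 8 conditions. The authors trimmed reads with cutadapt 1.8.1, aligned them with STAR 2.5.2b to GRCm38 and ran TEtranscripts for gene and repeat counts; the deposited values are whole-number counts, not normalized, in 47937 gene rows and 1445 repeat rows. Counts on a repeat name pool all its copies, and no single position can be given. A row without a readable name (0.00201% of counts) was left out, as were 2 rows whose family was marked as uncertain ERVK. Conditions were taken from the sample titles, which mark WT and E2 as controls without 4-OHT although a treatment field names 4-OHT for all samples. Names with -int or -I were classed as internal, all others as LTR.

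Library sizes were the gene counts, corrected by TMM factors from filtered genes. Elements passing filterByExpr by condition (1217) were fitted with edgeR 4.0.16 (R 4.3.3) in 1 quasi-likelihood model with a coefficient per condition, and p-values were adjusted by Benjamini-Hochberg over all 1217. Calls needed a log2 fold change of 1 or more in size together with an adjusted p of 0.01 or less. Normalized counts are counts divided by the corrected library size and set to a common depth. The SE is that of the log2 fold change. There were 7 comparisons against WT, 6 between lines and 2 interactions, and the code was tested on simulated data. Genes were fitted in the same way (18565 tested). Ratios for elements with hardly any WT counts carry exact 95% intervals. Alternatives were DESeq2 1.42.0, other scalings, no filter, only the libraries compared, a block for the replicate number and each library left out.

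The members and lists were chosen with earlier results of these data known. Members named with values were every tested internal name, the 6 LTR names with the highest mean level, the 4 LTR names with the largest rise in each of E1, E1E2 G9Gl, 6KO1 and 6KO2, those upregulated in all 7 mutants and the 4 with the smallest adjusted p in each interaction; names outside this rule are marked as such. Replicate numbers were not used as pairs (the check is given with the alternatives). Replicates were not duplicates, since the chi-square per element between them was 5.29 to 242. Depth was 24736829 to 37419071 counts per library. Sequences of the elements were not used here.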

Additional observations from a re-analysis of the deposited data

Results flagged for a closer look

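The effect of 4-OHT differed between the Eset2-mutated clone and the parent line at 16 members, by a test of the difference itself (edgeR quasi-likelihood interaction, Benjamini-Hochberg adjustment over 1217 elements). All 16 differences were negative, 7.11% of the tested members against 4.27% of all tested elements. The 4 with the smallest adjusted p were RLTR45-int (-5.87 on the log2 scale), ERVB4_1B-I_MM (-4.53), RLTR1F_Mm (-4.58) and ERVB4_2-I_MM (-3.56). Each of them rose in the parent line and was already high in the untreated clone. The other 12 included RLTR9A3A and RLTR45. Without WT replicate 2, 12 members had a negative difference and 1 a positive one.

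The effect of mutating Suv39h1 and Suv39h2 differed between the E1E2 G9Gl and E1 backgrounds at 75 members by the same kind of test. It was more negative in E1E2 G9Gl for 73 of them, 32.4% of the tested members against 19.1% of all tested elements. The median difference was -0.74 over the members and -0.58 over all 1217 elements. The 4 with the smallest adjusted p were RMER12B (-3.39 on the log2 scale), RLTR44-int (-3.06), ERVB3_1-I_MM (-3.60) and MurERV4_19-int (-2.28). In both tests the lines compared are different clones, so clone and genotype cannot be told apart. The Setdb1 RNA of E2, below WT and overlapping E1E2, is given with the 4-OHT comparison, and its part in the first difference was not tested.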

How the results depend on the processing

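Scaling the libraries by the repeats alone was the choice that moved most values. It set the upregulated members to 77 in 6KO1 and 91 in E1E2 G9Gl, and the downregulated ones to 2 in E1 S1S2 and 1 in E1E2 G9Gl. E1E2 G9Gl against E1E2 then had 70 higher and 2 lower, 6KO2 against E1E2 G9Gl 11 higher and 28 lower, and 6KO1 against 6KO2 11 higher and 1 lower. The 4-OHT difference became positive for 1 member, and the Suv39h difference positive for 11 and negative for 27. MYSERV6-int (-0.14), MurERV4-int (-0.40) and RLTR19-int (-0.38) in E1E2 G9Gl, ERVB2_1A-I_MM in E1E2 G9Gl (-0.32) and 6KO1 (-0.18) and RLTR18-int in 6KO1 (-0.33) turned negative. The LTR sum became 1.25 times WT in 6KO1, 1.19 in 6KO2 and 1.28 in E1E2 G9Gl, and the internal sum 1.19 in E1 S1S2, 1.47 in E1E2, 2.29 in 6KO1, 2.35 in 6KO2 and 2.46 in E1E2 G9Gl. This scale sets the median element near 0 by its own construction.

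Without TMM factors E1 S1S2 against E1 had 2 higher, and the internal sum of 6KO1 was 4.02 times WT. With only the libraries compared, E1E2 against E2 had 1 higher. Without MYSERV6-int the internal sum of E1 was 1.78 times WT, that of E1 S1S2 1.58, of E2 2.37, of E1E2 2.01, of 6KO1 4.80, of 6KO2 4.09 and of E1E2 G9Gl 5.98. Leaving out 1 library at a time gave 0 to 2 downregulated in E1 S1S2, 1 to 2 higher in E1 S1S2 against E1 and in E1E2 against E2, 0 to 1 positive 4-OHT differences and 2 to 4 positive Suv39h differences. Negative 4-OHT differences numbered 12 to 18, and negative Suv39h differences 64 to 79. The replicate numbers were not taken to pair the libraries, since in 0 of the 28 pairs of conditions did all 3 same-numbered pairs of libraries have deviations correlated above 0.1 (range -0.264 to 0.231), although 14 of 24 libraries correlated best with their own number. With a block for the replicate number, 14 members were upregulated in E1, 127 in 6KO1 and 155 in E1E2 G9Gl, and no other count moved by over 1.5 times. The cause of these changes was not tested where none is given. Names with few WT counts, such as RLTR19D and RLTR50A, are limited by depth.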
